A study of Caenorhabditis elegans with 2 samples.

Results

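The genes described here are the neuropeptide genes of Caenorhabditis elegans, taken as every protein-coding gene whose name starts with flp- or nlp-. There were 102 of them among 19973 protein-coding genes on the 6 nuclear chromosomes, 31 flp genes and 71 nlp genes. On the X chromosome lay 32 of the 102, against 2731 of all 19973. Shares over all chromosomes are not adjusted for this. Shares by chromosome are given below only for the gene body and 2 kb upstream together. Shares in the upstream part alone and summits per kb were not split by chromosome. The 102 genes were chosen by name, though with earlier results of these data known. The data were peak lists of a transcription factor ChIP-seq, in which DNA bound by a tagged protein is pulled down and sequenced. Whole L2 larvae of both sexes were used, from strain OP130, which carries unc-119(ed3) III and the wgIs130 insertion, with eGFP-tagged SMA-9 as the target. There was 1 group, with 2 biological replicates and no second genotype, stage or treatment, so no comparison between conditions was possible. Because whole larvae were used, a peak does not tell in which cells SMA-9 was at the site.

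Neuropeptides are cut from larger precursor proteins, packed into dense-core vesicles, and released to act on G protein-coupled receptors of other cells. The flp genes encode FMRFamide-like peptides, which end in arginine and an amidated phenylalanine. The nlp genes are a mixed group that also includes peptides made outside neurons, among them the antimicrobial peptides of the nlp-29 cluster, which the epidermis makes after fungal infection or wounding. SMA-9 is the worm relative of Schnurri, a zinc finger cofactor of Smads. It acts in Sma/Mab signalling, a BMP-like pathway, and is known for its part in body size and in the mesoderm.

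Each peak was assigned to a gene when its centre, here called the summit, lay in the gene body or up to 2 kb upstream of it. Peaks were ranked within a list by the authors' signal, with rank 1 the strongest. The pooled list and the list of each replicate held 30000 peaks each and were deposited as peaks together with background, so a summit in a window is not by itself a bound site. The authors' thresholded list held 125 peaks, which were the strongest of the pooled list. Read depth is unknown. Intervals given here are 95% intervals. They are exact Clopper-Pearson intervals for shares, exact Poisson intervals for values per kb and binomial order-statistic intervals for median ranks. They cover counting error over genes, summits or pairs of gene and summit only.

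The 200 bp windows about 5 strong pooled summits at neuropeptide genes are shown first, since they are among the strongest sites described below. Stronger or similar peaks whose window overlaps a UTR, among them those of nlp-76, nlp-9 and the nlp-30, nlp-31 and nlp-34 group, are not printed, and neither are those of nlp-8 and nlp-4. Also not printed is the peak at rank 1554 shared by nlp-31 and nlp-34, which is not the best peak of either. The printed windows are the plus strand of the RefSeq assembly of WBcel235, the same build as ce11. Capitals mark GTCT, the core of the Smad binding element, read on either strand and so also as AGAC. The windows are those of nlp-58 at chrV:9948434-9948633, nlp-1 at chrX:3725647-3725846, nlp-45 at chrX:2338871-2339070, nlp-49 at chrX:5904304-5904503 and flp-5 at chrX:8528488-8528687.
nlp-58, intron: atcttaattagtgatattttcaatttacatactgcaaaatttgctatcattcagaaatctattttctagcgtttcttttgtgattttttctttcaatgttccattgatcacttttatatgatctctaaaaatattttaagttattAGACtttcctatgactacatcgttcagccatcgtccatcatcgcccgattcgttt
nlp-1, upstream: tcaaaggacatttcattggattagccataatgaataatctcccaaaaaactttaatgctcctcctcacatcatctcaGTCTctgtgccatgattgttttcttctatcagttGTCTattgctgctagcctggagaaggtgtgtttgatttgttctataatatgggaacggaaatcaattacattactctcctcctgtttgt
nlp-45, upstream: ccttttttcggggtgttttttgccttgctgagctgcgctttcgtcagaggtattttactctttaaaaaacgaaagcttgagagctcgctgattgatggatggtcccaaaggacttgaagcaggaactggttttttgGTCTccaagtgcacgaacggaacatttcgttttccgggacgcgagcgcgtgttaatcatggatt
nlp-49, upstream: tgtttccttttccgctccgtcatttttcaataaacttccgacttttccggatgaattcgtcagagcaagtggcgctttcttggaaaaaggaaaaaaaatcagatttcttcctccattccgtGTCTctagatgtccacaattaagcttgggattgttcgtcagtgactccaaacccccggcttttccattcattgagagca
flp-5, intron: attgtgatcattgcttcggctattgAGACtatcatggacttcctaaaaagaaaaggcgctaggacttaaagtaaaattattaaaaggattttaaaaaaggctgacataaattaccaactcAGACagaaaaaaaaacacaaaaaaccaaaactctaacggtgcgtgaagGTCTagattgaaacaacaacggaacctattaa
The flp-5 window held 3 copies of GTCT, the nlp-1 window 2, and the windows of nlp-58, nlp-45 and nlp-49 held 1 each. GTCT was common everywhere. It lay in 58.9% of the 146 windows about summits of neuropeptide genes, against 60.7% of the 30000 pooled windows.

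The other 5 motifs searched on both strands were absent from these 5 windows. GATAA, the core of GATA factor sites, lay in 30.1% of the 146 windows at neuropeptide genes, against 40.2% of all pooled windows, and was the motif whose share differed most in percentage points. GAGAGA lay in 8.90%, against 10.4% of all pooled windows. CACGTG, an E-box, lay in 1.37%, against 3.39%. GGCGCC lay in 2.74%, against 1.27%. The palindrome GTCTAGAC, which holds GTCT on both strands, lay in 1 window (0.685%), against 0.143% of all pooled windows, and that window was upstream of flp-19. GC content averaged 34.1% in the windows at neuropeptide genes (SD 6.09, n = 146 windows), against 34.7% in all pooled windows (SD 6.84, n = 30000). A match gives only the letters and does not show binding at that motif.

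A pooled summit lay in the window of 83 of the 102 neuropeptide genes (81.4%, interval 72.4 to 88.4%), against 73.2% of all protein-coding genes. The count was 24 of 31 flp genes (77.4%, interval 58.9 to 90.4%) and 59 of 71 nlp genes (83.1%, interval 72.3 to 91.0%), and the intervals of the families overlapped. None of the 102 held a summit of the thresholded list, against 0.451% of all protein-coding genes. A count of 0 allows a share of up to 2.94% when the limit is set at 3 genes of 102, and up to 3.55% by the exact interval, and both ranges include the background share. The strongest neuropeptide peak had a signal of 27.0, below the weakest thresholded peak at 34.6.

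**Figure D1:**
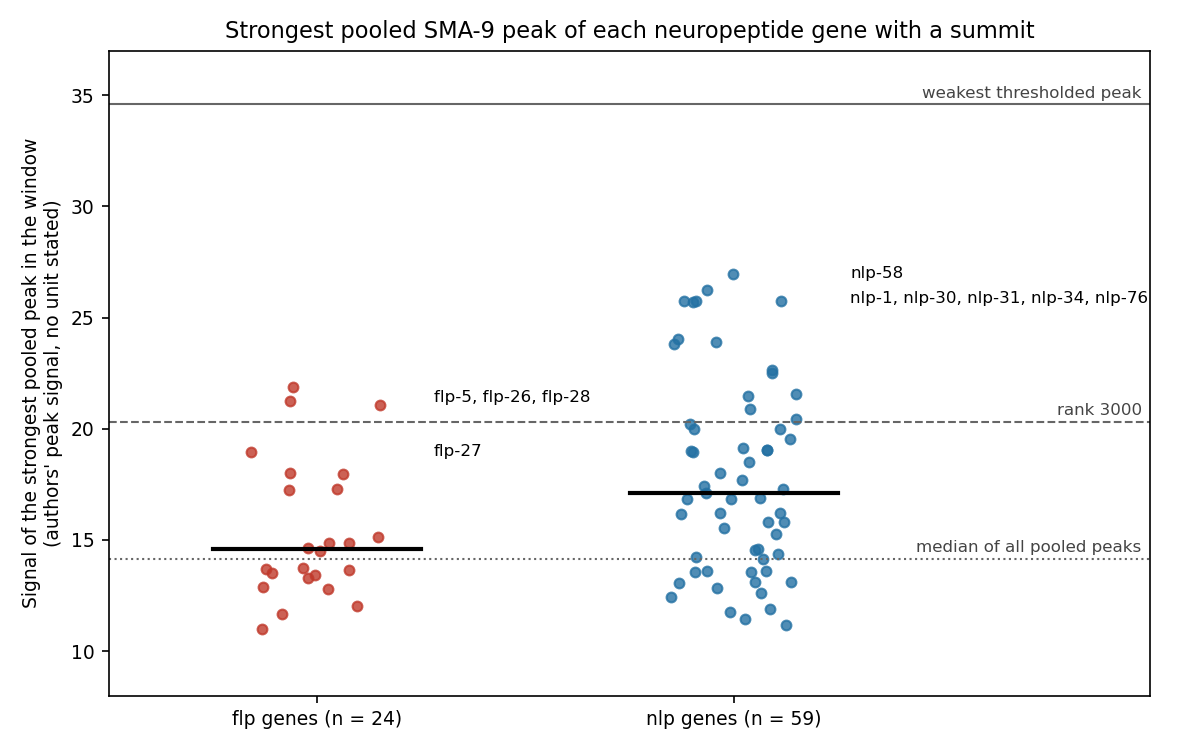
Signal of the strongest pooled peak in the window of each of the 24 flp and 59 nlp genes with a summit (authors' peak signal, no unit stated; horizontal jitter only separates points). Thick bars are medians, 14.6 for flp and 17.1 for nlp genes, and the lines mark the pooled median (14.1), the signal at rank 3000 (20.3) and the weakest thresholded peak (34.6), which no gene reaches.

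A summit among the 3000 strongest pooled peaks lay in the windows of 18 genes (17.6%, interval 10.8 to 26.4%), against 13.2% of all protein-coding genes, which lies inside the interval. Of these 18, 15 were nlp genes (21.1% of the family, interval 12.3 to 32.4%) and 3 were flp genes (9.68%, interval 2.04 to 25.8%). At the 1000 strongest peaks the count was 7 genes (6.86%, interval 2.80 to 13.6%), against 4.60% of all protein-coding genes, and all 7 were nlp genes. The family intervals overlapped at both depths. The order of the families differed between the replicates. Among the 3000 strongest peaks of replicate 1, 10 nlp genes (14.1%) and 1 flp gene (3.23%) had a summit. In replicate 2 it was 12 nlp genes (16.9%, interval 9.05 to 27.7%) and 7 flp genes (22.6%, interval 9.59 to 41.1%). The median best rank over genes with a summit was 9036 for the 83 neuropeptide genes (interval 6150 to 12684), against 10019 for 14617 protein-coding genes, which lies inside the interval. With replicate 1 alone the order turned round, at 12101, against 9893. The median best rank was 7226 for nlp genes (interval 4288 to 10021) and 13545 for flp genes (interval 6892 to 17767).

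Neuropeptide genes are short, and their windows had a median of 3018.5 bp, against 4027 bp for all protein-coding genes, so each count was also taken in ways that do not depend on gene length. In the 2 kb upstream alone, equal for every gene, 65 neuropeptide genes held a pooled summit (63.7%, interval 53.6 to 73.0%), against 48.1% of all protein-coding genes. The background share lies below that interval. For the 3000 strongest peaks the upstream count was 13 genes (12.7%, interval 6.96 to 20.8%), against 6.17%, again below the interval. These 13 include nlp-30, nlp-31 and nlp-34, which share strong peaks. An alternative, added after seeing the data, counted genes that share a strong upstream peak as 1. It gave 11 of 100 (interval 5.62 to 18.8%). Counted the same way, the share of all protein-coding genes was 5.21%, just below that interval. The 6.17%, counted without this merging, lies inside it. Per length, the windows held 146 summits in 362.63 kb, or 0.403 per kb (interval 0.340 to 0.473), against 0.301 per kb for the windows of all protein-coding genes. Genes of similar window length showed the same order. Of the 36 neuropeptide genes with windows of 2500 to 3000 bp, 29 held a summit (80.6%), against 57.7% of all protein-coding genes of that length. Of the 16 with windows of 4000 to 6000 bp, 15 held one (93.8%), against 78.5%. Below 2500 bp the share was 72.7%, against 50.3%. The gap was smaller at 3000 to 4000 bp (75.0%, against 68.1%) and over 6000 bp (90.9%, against 88.2%). The order did not hold throughout for strong peaks. It held at 2500 to 3000 bp, where 8 of 36 had a summit among the 3000 strongest (22.2%), against 8.59%. At 4000 to 6000 bp 7 of 16 had one (43.8%), against 13.5%, and below 2500 bp 1 of 11 (9.09%), against 7.08%. Of the 28 neuropeptide genes with windows of 3000 to 4000 bp, 2 had a summit among the 3000 strongest (7.14%), against 9.88% of all protein-coding genes of that length. None of the 11 neuropeptide genes with windows over 6000 bp had one, against 21.8% of all such genes. No intervals were computed for the counts by window length, and 11 genes are few.

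The replicate lists differed in how far the upstream share stood above the background. With replicate 1 alone 55 neuropeptide genes held an upstream summit (53.9%, interval 43.8 to 63.8%), against 48.9% of all protein-coding genes, which lies inside the interval. With replicate 2 alone 68 did (66.7%, interval 56.6 to 75.7%), against 47.0%, which lies below it. The gap between the replicates was wider for flp than for nlp genes. Upstream summits lay at 12 of 31 flp genes in replicate 1 (38.7%, interval 21.9 to 57.8%) and at 21 in replicate 2 (67.7%, interval 48.6 to 83.3%), while the nlp counts were 43 and 47 of 71. In the whole window 77 neuropeptide genes held a summit of replicate 1 (75.5%, interval 66.0 to 83.5%), against 72.9% of all protein-coding genes. In replicate 2 the count was 85 (83.3%, interval 74.7 to 90.0%), against 73.9%. For flp genes the whole-window counts were 20 in replicate 1 (64.5%) and 29 in replicate 2 (93.5%), and for nlp genes 57 (80.3%) and 56 (78.9%).

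**Figure D2:**
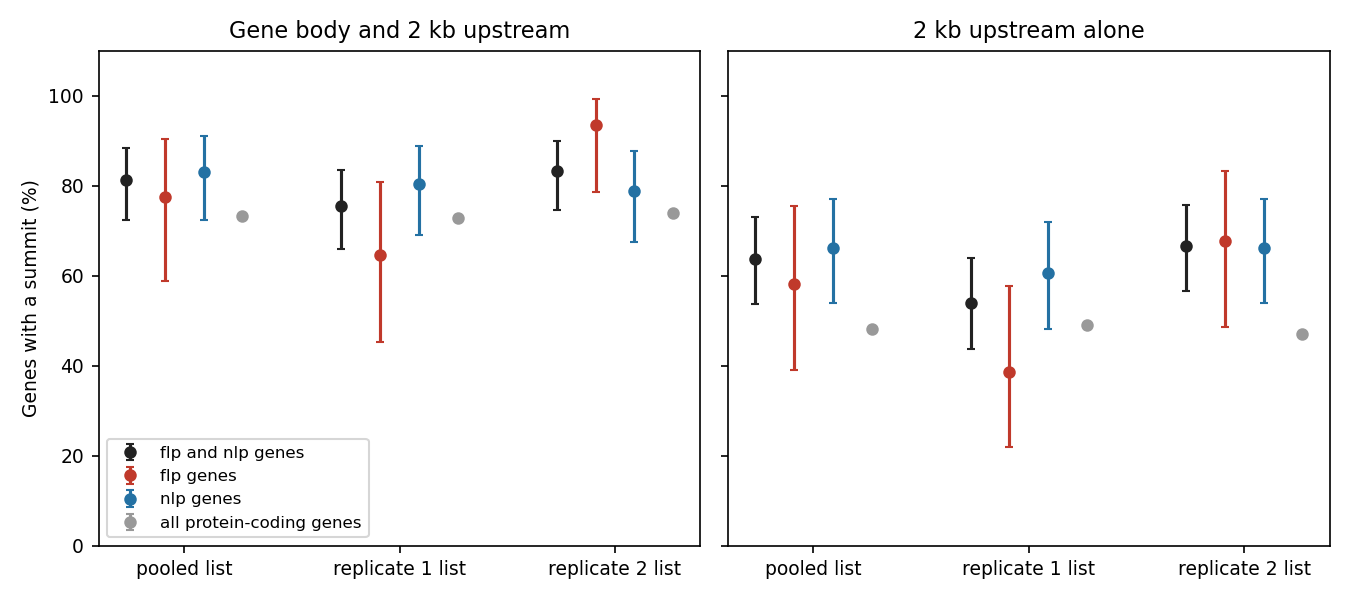
Percent of genes with a summit in the gene body and 2 kb upstream (left) and in the 2 kb upstream alone (right), for the pooled list and each replicate list. Points are shares of the 102 neuropeptide genes, the 31 flp genes, the 71 nlp genes and all 19973 protein-coding genes, with exact 95% Clopper-Pearson intervals; the flp share is 64.5% in replicate 1 and 93.5% in replicate 2 in the whole window.

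A summit in both replicate lists was present at 64 neuropeptide genes (62.7%, interval 52.6 to 72.1%), against 58.3% of all protein-coding genes. A summit in neither was the case for 4 (3.92%, interval 1.08 to 9.74%), nlp-20, nlp-41, nlp-61 and nlp-62, against 11.5%. The strong peaks were shared far less. Among the 3000 strongest peaks of its own list, replicate 1 had a summit at 11 neuropeptide genes (10.8%, interval 5.51 to 18.5%), against 12.9% of all protein-coding genes, and replicate 2 at 19 (18.6%, interval 11.6 to 27.6%), against 13.8%. In replicate 1 the share of neuropeptide genes with a strong peak thus lay below the background share, and the higher pooled share had no counterpart there. Both replicates placed a summit among their 3000 strongest at only 2 of the genes (1.96%, interval 0.238 to 6.90%), against 3.27% of all protein-coding genes. These were nlp-8 and nlp-76.

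**Figure D3:**
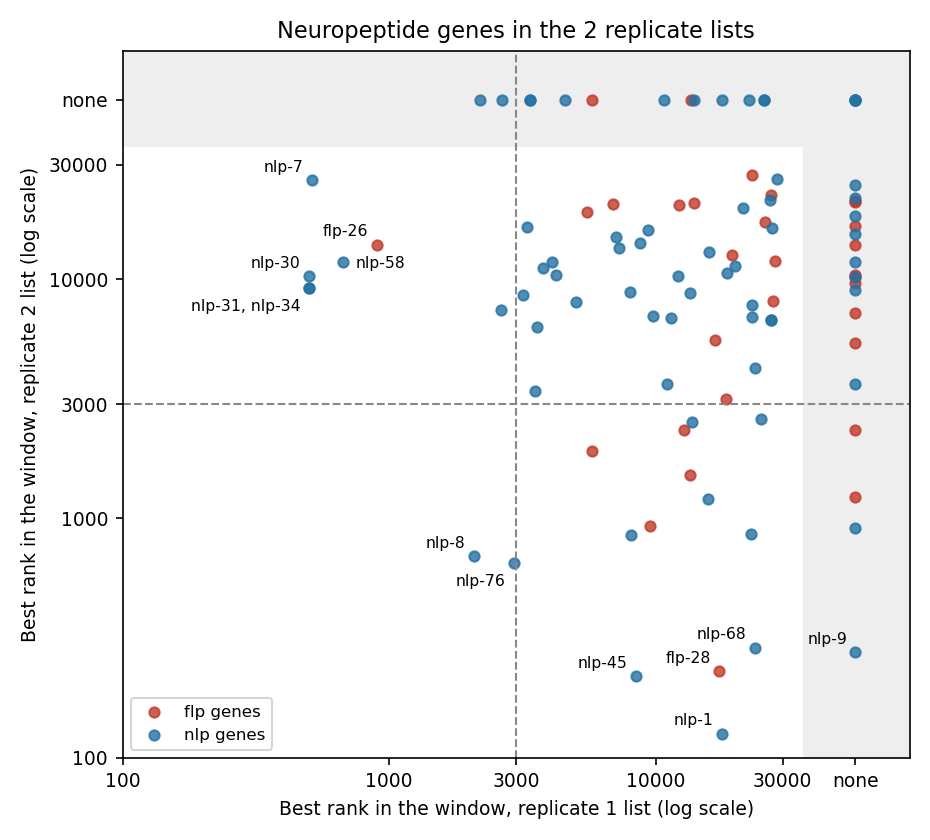
Best rank in the window of each of the 102 neuropeptide genes in the replicate 1 list (horizontal, log scale) and the replicate 2 list (vertical, log scale); grey bands hold genes with no summit in that list and dashed lines mark rank 3000. Only nlp-8 and nlp-76 sit in the lower left square. Among the genes strong in replicate 1 only are nlp-7, nlp-58, flp-26 and the nlp-30, nlp-31 and nlp-34 group. Among those strong in replicate 2 only are nlp-1, nlp-45, nlp-9, nlp-68 and flp-28.

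The strongest pooled peak of any neuropeptide gene was that of nlp-58, at rank 424 with a signal of 27.0, in an intron 407 bp inside the gene on chromosome V. It overlapped a peak of signal 17.8 in replicate 1 (rank 674) and one of 6.90 in replicate 2 (rank 11779). The peak was among the strong ones of replicate 1 and in the middle of the replicate 2 list. The peak of nlp-76, in a coding exon on the X chromosome, had rank 530 and a signal of 26.2. It overlapped peaks of 14.01 in replicate 1 (rank 2933) and 12.2 in replicate 2 (rank 650), and so was strong in both.

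nlp-1, which encodes a peptide that the AWC olfactory neurons release to act on AIA interneurons, had 2 summits in its window on the X chromosome, both among the 3000 strongest. The stronger lay 1828 bp upstream at rank 608, with a signal of 25.7, and the second 41 bp upstream at rank 1836, with 22.004. The stronger peak was the highest of any neuropeptide gene in replicate 2, with a signal of 15.04 at rank 126, but only 8.74 at rank 19028 in replicate 1. nlp-45, whose expression is known to be controlled by the developmental timing factor LIN-14, had a peak of signal 24.03 at rank 984, 660 bp upstream. Its signal was 14.1 in replicate 2 (rank 220) and 11.2 in replicate 1 (rank 8421). nlp-9 had a peak of signal 23.9 at rank 1035 in a coding exon, which overlapped a replicate 2 peak (13.6, rank 277) and no replicate 1 peak.

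Genes known for roles in sleep and arousal had widely different ranks. nlp-8, which the ALA neuron releases in sleep after stress, had rank 1069 with a signal of 23.8, 1290 bp upstream, and signals of 14.8 in replicate 1 (rank 2085) and 12.04 in replicate 2 (rank 696). flp-13, another sleep peptide of ALA, had no pooled and no replicate 1 summit, and a replicate 2 summit of rank 10376. nlp-49, which promotes arousal, had rank 1502 and a signal of 22.6, 250 bp upstream, with 11.7 in replicate 2 (rank 853) and 11.3 in replicate 1 (rank 8080). nlp-14, an orcokinin-type peptide gene, had rank 2143 with a signal of 21.5, 626 bp upstream. flp-11, the sleep peptide of the RIS neuron, had rank 5687, 425 bp upstream, with weak signals of 7.52 in replicate 1 (rank 27494) and 7.66 in replicate 2 (rank 8105). nlp-22, which acts in sleep between larval stages, had its only pooled summit at rank 7721 and shared it with nlp-23.

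Among the flp genes, flp-5 had both the best rank, 1920, and the most pooled summits of any neuropeptide gene, 6 in a window of 4827 bp on the X chromosome. Its strongest summit lay 337 bp inside the gene in an intron, with a pooled signal of 21.9, and overlapped signals of 10.6 in replicate 1 (rank 10302) and 10.4 in replicate 2 (rank 1906). Its 5 other summits had ranks between 8829 and 22952, 4 of them upstream. flp-26 followed at rank 2282, 287 bp upstream, with 13.5 in replicate 1 (rank 3618) and 6.39 in replicate 2 (rank 14604). Its window also held a stronger replicate 1 summit, at rank 899 with a signal of 17.02. A second pooled summit of flp-26 lay in the 3' UTR at rank 3416. flp-28 had rank 2427, 623 bp upstream, with 13.98 in replicate 2 (rank 230) and no overlapping peak in replicate 1. All 3 lay on the X chromosome, where 9 of 13 flp genes had a pooled summit (69.2%), against 83.3% of all protein-coding genes there. The next flp genes were flp-27 at rank 4377, flp-11, flp-19 at rank 5765, flp-4 at rank 6892 and flp-2, an arousal peptide gene, at rank 6944.

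The genes that marked the border of the 3000 strongest peaks were nlp-82 at rank 2525 and nlp-47, the GnRH-like and AKH-like peptide gene, at rank 2896 just inside, and nlp-16 at rank 3093 and nlp-13 at rank 3276 just outside. The remaining 2 genes inside were nlp-4 at rank 1558, whose summit also lay in the windows of ndub-10 and F59C6.12, and nlp-11 at rank 2092. Well-studied peptides further down were nlp-24, an opioid-like peptide gene, at rank 3694, nlp-12, a cholecystokinin-like gene of the DVA neuron that acts in locomotion, at rank 7661, and flp-21, which encodes a ligand of the receptor NPR-1, at rank 12658. flp-1, a locomotion peptide gene, had rank 17767, flp-18, another NPR-1 ligand gene, rank 18386, and nlp-40, whose peptide the gut secretes to time defecation, rank 22095. None of these 6 had a summit among the 3000 strongest in any of the 3 lists.

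Apart from flp-5, the genes with most pooled summits were flp-4 and nlp-15 with 5 each and nlp-43 with 4, in windows of 8727, 9245 and 4261 bp. The best ranks were 6892 at flp-4, 6150 at nlp-15 and 9036 at nlp-43. flp-14 was 1 of 14 genes with exactly 3 summits (13.7%, against 10.6% of all protein-coding genes), and its best had rank 11914. Over all 102 genes, 38 had exactly 1 pooled summit, 27 had 2 and 18 had 3 or more. More than 1 summit was thus present at 45 genes (44.1%), against 41.3% of all protein-coding genes.

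At the nlp-29 cluster on chromosome V, 6 nlp genes spanned 10.9 kb, with 8 pooled peaks over or beside them, 2 of them among the 3000 strongest. The strongest was a single peak at rank 601 with a signal of 25.8, 19 bp inside nlp-31, which also lay 1906 bp upstream of nlp-30 and 940 bp upstream of nlp-34. These 3 of the 18 genes with a strong peak therefore count 1 peak, and the 18 genes had 16 distinct best summits. The peak had a signal of 18.7 in replicate 1 (rank 500) and 7.19 in replicate 2 (rank 10276). A second peak, at rank 1554 with a signal of 22.5, lay in the windows of nlp-31 and nlp-34. nlp-29 itself had 1 summit, 752 bp upstream at rank 4406, with a signal of 18.9, and overlapped peaks of 8.63 in replicate 1 (rank 19652) and 7.11 in replicate 2 (rank 10645). nlp-27 and nlp-28 shared 1 summit at rank 10021, seen in replicate 1 (13.6, rank 3384) and not in replicate 2.

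**Figure D4:**
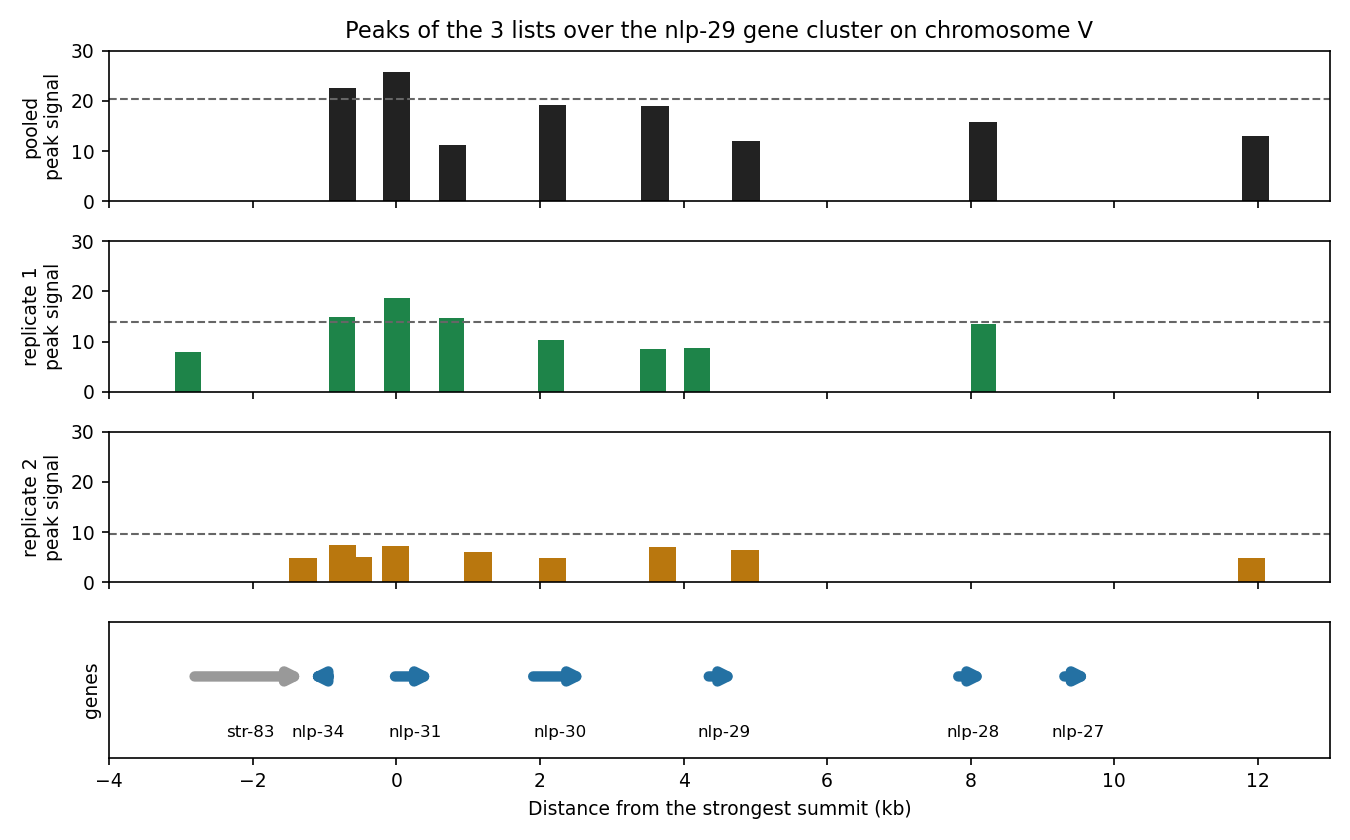
Peaks of the pooled, replicate 1 and replicate 2 lists over the nlp-29 gene cluster, drawn at their summit and width, with height the authors' peak signal (no unit stated) and distance in kb from the strongest pooled summit. Dashed lines mark the signal at rank 3000 of each list; 2 pooled and 3 replicate 1 peaks pass it, no replicate 2 peak does, and blue arrows are nlp genes.

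On the X chromosome, nlp-45, nlp-22, nlp-23 and nlp-2 lay inside T01B6.1, and flp-28, flp-3 and flp-2 lay inside W07E11.1, each set on the strand opposite to its host gene. Their summits are therefore also summits of the host gene, and the rule cannot tell which gene a peak belongs to. nlp-23 shared the summit at rank 7721 with nlp-22 and those at ranks 9079 and 25536 with nlp-2. Of the 83 genes with a summit, 24 had a best summit that also lay in the window of another protein-coding gene (28.9%), against 46.8% of all protein-coding genes with a summit. For 71 of the 83 (85.5%) the 5' end nearest to the best summit was the gene's own, against 68.7% of all protein-coding genes.

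Summits of neuropeptide genes lay mostly upstream. Of 154 pairs of gene and summit, 91 were upstream (59.1%, interval 50.9 to 66.9%), against 39.6% of the pairs of all protein-coding genes. Since 55.1% of neuropeptide windows is upstream sequence, against 38.3% of all windows, the counts were also set per length. These values count pairs, so a summit or stretch of sequence shared by genes counts once for each gene. With each counted once, the upstream value was 0.435 per kb, against 0.312 at all protein-coding genes. Upstream summits came to 0.446 per kb at neuropeptide genes (interval 0.359 to 0.548), against 0.309 per kb at all protein-coding genes. Between 500 and 1000 bp upstream the value was 0.569 per kb (interval 0.381 to 0.817), against 0.301, which lies below the interval. Within 500 bp it was 0.490 (interval 0.317 to 0.724), against 0.331, and between 1000 and 1500 bp it was 0.392 (interval 0.240 to 0.606), against 0.298, both inside the interval. Between 1500 and 2000 bp it was 0.333 per kb (interval 0.194 to 0.534), against 0.308, also inside it. The short 5' UTRs held 6 summits, 0.936 per kb (interval 0.344 to 2.04), against 0.317. Introns held 0.395 per kb (interval 0.285 to 0.534), against 0.296, inside the interval. Coding exons held 7 summits of neuropeptide genes, 0.216 per kb (interval 0.0869 to 0.446), against 0.273 per kb.

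**Figure D5:**
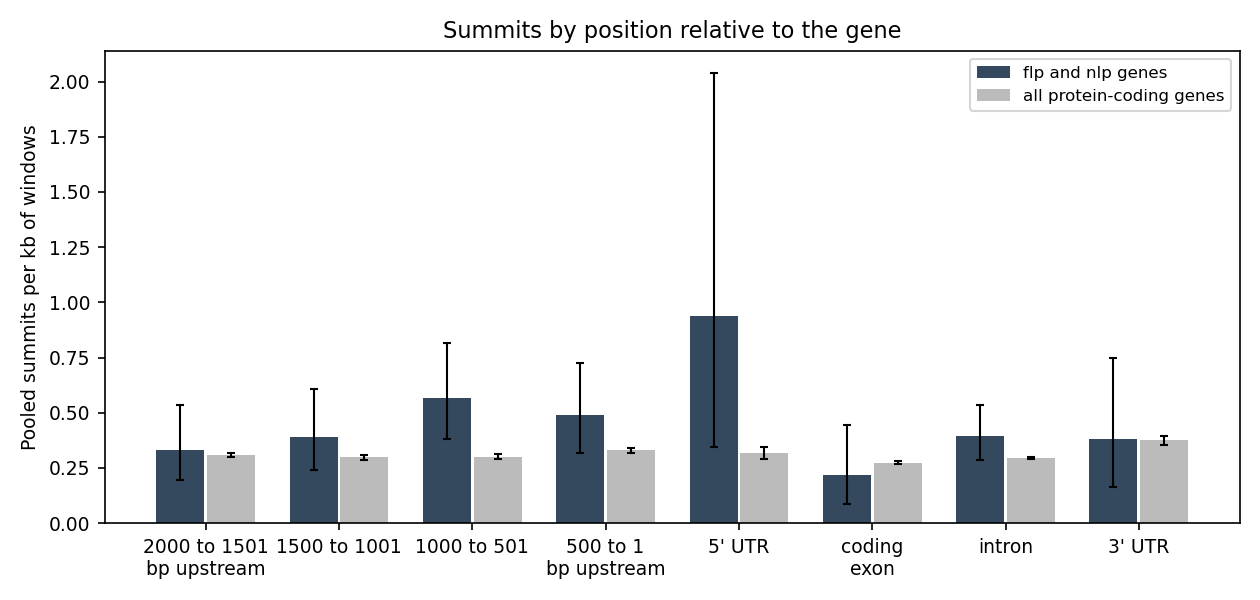
Pooled summits per kb of window by position, for the 102 neuropeptide genes (dark) and all 19973 protein-coding genes (grey). Summits are counted as pairs of gene and summit, with exact 95% Poisson intervals over pairs. The 5' UTR bar is the highest, at 0.936 per kb from 6 summits with the widest interval, and of the upstream bars the one between 500 and 1000 bp is highest, at 0.569 per kb, against 0.301 per kb for all protein-coding genes.

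The best pooled peaks of the 83 genes were set beside the replicate lists. They overlapped a replicate 1 peak at 60 genes (72.3%), against 73.9% of all protein-coding genes with a summit, and a replicate 2 peak at 56 (67.5%), against 60.9%. They overlapped peaks of both at 36 (43.4%), against 40.2%, and of 1 replicate only at 44 (53.0%), against 54.4%. At 3 genes (3.61%, against 5.39%) it overlapped neither, nlp-64, nlp-66 and flp-24, which were named after their values were seen. Over the 36 genes with both, the log2 of replicate 1 signal over replicate 2 signal had a median of 0.33 (SD 0.57), against 0.58 for the ratio of the medians of the 2 lists. Across these 36 genes the replicate signals had a Spearman correlation of -0.04, given as a description, since all of these peaks were chosen from the list of the pooled replicates and 3 of the genes share 1 peak. The ratio was largest, 1.38, at the peak shared by nlp-30, nlp-31 and nlp-34, and smallest at nlp-1 (-0.78), nlp-68 (-0.75) and nlp-82 (-0.34). At nlp-68 the signals were 8.02 in replicate 1 (rank 23629) and 13.5 in replicate 2 (rank 289). At nlp-82 they were 8.78 in replicate 1 (rank 18790) and 11.1 in replicate 2 (rank 1208).

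Some neuropeptide genes with a strong peak in 1 replicate had none among the 3000 strongest pooled peaks. In replicate 1, 4 genes had a summit among its 3000 strongest and no strong pooled one, nlp-7 (rank 513 in replicate 1 and 11545 pooled), nlp-79 (2192 and 17045), nlp-59 (2625 and 4269) and nlp-18 (2659 and 17206). They fall outside the rule for naming genes and were named after their values were seen. In replicate 2 there were 9 such genes, with nlp-68 (rank 289 in replicate 2 and 3289 pooled) the strongest of them. Among them was nlp-26, at rank 2616 in replicate 2 with no pooled summit. The shares of all protein-coding genes that go with the counts of 4 and 9 were not computed, so neither count can be read as high or low.

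No pooled summit was found at 19 genes. The flp genes among them were flp-7, a tachykinin-like gene that acts on fat, flp-8, flp-12, flp-13, flp-16, flp-20, a gene of the touch neurons, and flp-22. The nlp genes were nlp-19, nlp-20, nlp-21, nlp-26, nlp-32, nlp-36, nlp-39, nlp-41, nlp-53, nlp-61, nlp-62 and nlp-69. Of the 19, 6 had a summit in replicate 1, 13 had one in replicate 2 and 4 had none in any of the 3 lists. The matching shares of all protein-coding genes without a pooled summit were not computed, so none of these counts can be read as high or low. All 7 flp genes had a summit in at least 1 replicate list, with best ranks from 7194 (flp-12, replicate 2) to 21199 (flp-22, replicate 2). The limit of 2 kb decided several of them. The nearest upstream summit lay 2129 bp from flp-16, 2142 bp from flp-20, 2181 bp from flp-22 and 2280 bp from nlp-62, while the best summits of nlp-30 at 1906 bp, nlp-1 at 1828 bp and nlp-7 at 1802 bp were inside it.

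By chromosome, 25 of 32 neuropeptide genes on the X had a pooled summit (78.1%), against 83.3% of all protein-coding genes there. On the autosomes 58 of 70 did (82.9%), against 71.6%. The 3 flp genes with a summit among the 3000 strongest were all on the X, and none of the 18 autosomal flp genes had one. On the X, 8 of 32 neuropeptide genes had such a summit (25.0%), against 20.9% of all protein-coding genes there, and on the autosomes 10 of 70 (14.3%), against 11.99%. On chromosome III none of the 12 neuropeptide genes had one, against 12.5%.

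The other genes of peptide signalling were taken from lists of names. Of 14 genes for peptide processing and release, 13 had a pooled summit (92.9%, interval 66.1 to 99.8%), against 73.2% of all protein-coding genes, and 4 had one among the 3000 strongest (28.6%), against 13.2%. The highest ranks were those of pkc-1, a protein kinase C that promotes peptide release, at 1117, aex-5, a proprotein convertase, at 1151, and pgal-1, the lyase of the amidation step, at 1537. egl-3, the main convertase of neuropeptide precursors, had rank 10098 and egl-21, the carboxypeptidase that follows it, rank 8435. Their windows were long, with a median of 7013 bp, and held 0.302 summits per kb, against 0.301 per kb for all protein-coding genes, so their high share came with no higher density. Of 105 peptide receptor genes, 97 had a summit (92.4%, interval 85.5 to 96.7%) and 25 one among the 3000 strongest (23.8%), against 73.2% and 13.2% of all protein-coding genes. Their windows were also long, with a median of 5823 bp, and held 0.387 summits per kb. Of all protein-coding genes with windows of 4000 to 6000 bp, the range that holds this median, 78.5% had a summit and 13.5% one among the 3000 strongest. With windows over 6000 bp the shares were 88.2% and 21.8%. The highest ranks were those of npr-18 at 160, gnrr-5 at 267 and dmsr-7 at 389, all above the best neuropeptide gene at 424. Of 44 insulin-like and other peptide genes, 28 had a summit (63.6%, interval 47.8 to 77.6%), against 73.2%, and 4 had one among the 3000 strongest (9.09%), against 13.2%. These were ins-39 at 661, ins-29 at 1216, ins-14 at 2611 and ins-3 at 2899. Their windows held 0.343 summits per kb and had a median of 2667 bp. None of the genes of these lists held a thresholded summit.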

How the data were processed

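The authors deposited peak lists of 2 biological replicates and of their pooled reads, in the narrowPeak layout, with no read totals. Column 7 of the deposited lists holds a peak signal, never below 0 and with no scale stated. Its median is not the same in each list, so ranks were used across lists. Column 9 of the deposited lists holds a score that lies below 0 for 20593 pooled peaks, so it was used only to rank. The aligner and peak caller are not given in the sources used. Control libraries and the ce10 lists were not used. Peaks have 1 width per list and the summit is the peak centre.

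Genes came from Ensembl release 115 of WBcel235. Summits were assigned with Python 3.11.15, pandas 2.3.3 and scipy 1.17.1, in a procedure tested on simulated data. A summit could count for several genes. Peaks overlapped from 1 bp. No test was run, because there is 1 group and the members were chosen with earlier results of these data known. 

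The members and lists were chosen with earlier results of these data known. Named were the 8 flp and 8 nlp genes of best rank, the 5 with most summits, the 3 largest and 3 smallest replicate ratios, genes that share a summit, 15 well-known genes whatever their values, and the genes with no summit. The rule asked for the first 8 of the last by name, and all 19 are given. Other genes named as next in rank, near a threshold or strong in 1 replicate were added after their values were seen. The 5 printed windows are those of best rank, among the best peaks of each gene, that overlap no annotated UTR, with chromosome I left out.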

Additional observations from a re-analysis of the deposited data

How the results depend on the processing

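The share of neuropeptide genes with any pooled summit (81.4%) was 95.1% with 5 kb upstream, 63.7% in the 2 kb upstream alone and 43.1% with only the 10000 strongest peaks. It stayed above the share of all protein-coding genes under each alternative, those leaving out a replicate included. For flp genes (77.4%) it was 93.5% with 5 kb upstream and 58.1% upstream alone, and with 1 replicate left out it ran from 64.5% to 93.5%, the lower one, replicate 1 alone, being below the 72.9% of all protein-coding genes. For nlp genes (83.1%) it was 95.8% with 5 kb upstream and 66.2% upstream alone. The share with a summit among the 3000 strongest (17.6%) was 6.86% for the 1000 strongest and 0% for the thresholded list. Ranked by column 9, it was 7.84%, against 13.9% of all protein-coding genes, so the order turned round. Columns 7 and 9 ran against each other over the 30000 pooled peaks (Spearman correlation -0.923), and what column 9 measures is not stated. With 1 replicate left out the share ran from 10.8% (replicate 1 alone) to 18.6% (replicate 2 alone). The 0.403 summits per kb became 0.143 with the 10000 strongest peaks, against 0.0991 for all protein-coding genes. Of the alternative values above, the 64.5% of flp genes and the 18.6%, each from 1 replicate alone, lay inside the counting interval of the reported value. The other 13 lay outside it. Of all 47 alternatives 34 lay inside, among them all those of the median best rank. Of these, the median rank of replicate 1 alone, 12101, against 9893 for all protein-coding genes, and that by column 9, 12349, against 9478, also turned the order round. With genes that share a strong summit counted as 1, chosen after seeing the data, 16 of 100 had a summit among the 3000 strongest, against 10.5%. The causes were not tested. No paired analysis was possible because there is 1 group. The number of genes and the unknown read depth limit the precision.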
